A study of Mus musculus with 5 samples.

Results

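The genes described are 36 interferon-induced genes of the mouse, taken from a given list and matched by symbol in the gene tables of 4 unsorted skin libraries. They matched 37 of 28001 features there, because the symbol Gbp6 names 2 features, and 36 of 31054 features in a library of sorted cells. By the list, 22 are type I members, genes chiefly known as targets of interferon alpha and beta, and 14 are gamma-type members, known for their strong response to interferon gamma. Many of the 36 respond to both kinds of interferon, so the names say which response a gene is best known for.

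RNA of single cells from dorsal skin of female mice was counted as unique molecular identifiers (UMIs, tags that count each captured molecule once). The control genotype, Lepr-Cre;mTmG, and the genotype labelled Lepr-Cre;mTmG;Smo+/-, called mutant here, each gave 2 libraries of unsorted skin cells at postnatal day 46. One protocol text of the labels also writes the control with Smo after the reporter, and no label says how the Smo allele was changed. A further Lepr-Cre;mTmG library held GFP-positive cells sorted at postnatal day 50. Every mouse carried Lepr-Cre, a recombinase driven by the leptin receptor gene, and mTmG, a reporter that turns from tomato to GFP where the recombinase has acted, so recombination was directed to cells of the Lepr lineage. By the protocols, the 2 libraries that share a genotype are technical replicates. P-values therefore measure only the spread between 2 preparations a genotype, and genotype cannot be told apart from animal or day of preparation.

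Kept cells numbered 8078 and 8213 in the control, 8345 and 8652 in mutant libraries and 432 in the sorted library, with a median of 8284 to 9727 UMIs in unsorted and 2209 in sorted cells. Unsorted libraries shared 117 to 192 cell barcodes in each pair, at most 1.73% of the smaller library, and the sorted library shared 0. Cells were assigned to 22 cell types by marker lists that hold no interferon-induced gene. Such a marker-defined group is called a gate, and 15 gates had at least 20 cells in each unsorted library. In the papilla gate, which holds cells with markers of the dermal papilla at the base of the hair follicle, Smo was at 35.5 and 36.5 CPM (the UMIs of a gene in 1000000 UMIs of the gate) in the control and 47.6 and 46.7 in mutant libraries. Gli1, a transcriptional target of Hedgehog signalling, was at 19.4 and 20 in control libraries and 78.2 and 78 in the mutant papilla gate, and the GFP reporter was at 497 to 568 in all 4. In the basal keratinocyte gate Smo was at 10.8 to 11.3, Gli1 at 1.48 to 3.11 and GFP at 59.5 to 69 CPM, a GFP level near the 50.2 to 62 of the lymphocyte gate.

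Interferons are secreted proteins that bind receptor pairs at the cell surface, Ifnar1 with Ifnar2 for type I and Ifngr1 with Ifngr2 for gamma. The receptors activate Jak kinases, which phosphorylate Stat proteins. A complex that holds Stat2 and Irf9 binds a DNA element called ISRE, while GAS is a shorter palindrome found at genes induced by interferon gamma, and Irf1, made in response, binds ISRE-like elements in turn. In skin, T and natural killer cells are the known source of interferon gamma, and keratinocytes respond to it with chemokines and antigen presentation genes.

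RefSeq promoters (GRCm38.p6, 250 bases before to 50 after each start) were found for 27 of the 36 members. The others are Gbp4, Gbp6, Ifi27l2a, Iigp1, Nlrc5, Parp14, Rtp4, Usp18 and Zbp1. Letters matching an ISRE core, GAAANNGAAA on either strand, stood in 15 of 27 members and in 3.99% of 27025 genes. A GAS palindrome, TTCNNNGAA on either strand, stood in 7 of 27 members and in 9.55% of all genes. ISRE letters were found in 9 of 17 type I and 6 of 10 gamma-type members, and GAS letters in 2 of 17 and 5 of 10. A match describes letters only and is not a binding site. The 6 promoters below belong to genes on which the results turn: a guanylate-binding protein and 2 immunity-related GTPases that were higher in mutant keratinocytes, the factor Irf1, and the type I members Ifit1 and Isg15, of which Ifit1 rose there and Isg15 did not pass. Capitals mark ISRE and GAS letters, and each sequence is written 5′ to 3′ on the strand of its gene. Gbp2 is at chr3:142620413-142620712 (+), Igtp at chr11:58199306-58199605 (+), Irgm1 at chr11:48871371-48871670 (−), Irf1 at chr11:53769764-53770063 (+), Ifit1 at chr19:34640639-34640938 (+) and Isg15 at chr4:156200769-156201068 (−).
Gbp2: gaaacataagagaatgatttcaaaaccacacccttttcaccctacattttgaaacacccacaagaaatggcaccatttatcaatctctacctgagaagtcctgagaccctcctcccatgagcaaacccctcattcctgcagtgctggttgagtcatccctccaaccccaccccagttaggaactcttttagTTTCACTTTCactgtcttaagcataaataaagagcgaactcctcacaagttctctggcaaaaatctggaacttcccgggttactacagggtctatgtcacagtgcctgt
Igtp: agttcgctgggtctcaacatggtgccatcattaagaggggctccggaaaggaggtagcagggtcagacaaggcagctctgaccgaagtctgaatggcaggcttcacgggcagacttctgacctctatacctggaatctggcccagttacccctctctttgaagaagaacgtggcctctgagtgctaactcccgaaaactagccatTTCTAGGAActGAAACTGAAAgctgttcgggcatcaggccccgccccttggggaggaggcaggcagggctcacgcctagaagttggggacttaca
Irgm1: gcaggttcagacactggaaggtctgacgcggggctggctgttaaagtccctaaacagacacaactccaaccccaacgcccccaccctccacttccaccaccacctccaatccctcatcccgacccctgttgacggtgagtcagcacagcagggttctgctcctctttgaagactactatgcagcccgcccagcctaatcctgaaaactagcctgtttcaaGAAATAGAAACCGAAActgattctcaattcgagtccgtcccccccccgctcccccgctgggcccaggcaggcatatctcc
Irf1: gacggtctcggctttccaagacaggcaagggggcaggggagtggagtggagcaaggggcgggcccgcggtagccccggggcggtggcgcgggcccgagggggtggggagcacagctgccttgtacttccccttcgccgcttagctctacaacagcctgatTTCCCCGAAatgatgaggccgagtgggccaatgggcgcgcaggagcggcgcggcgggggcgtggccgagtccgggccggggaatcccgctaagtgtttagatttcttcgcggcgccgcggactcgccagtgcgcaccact
Ifit1: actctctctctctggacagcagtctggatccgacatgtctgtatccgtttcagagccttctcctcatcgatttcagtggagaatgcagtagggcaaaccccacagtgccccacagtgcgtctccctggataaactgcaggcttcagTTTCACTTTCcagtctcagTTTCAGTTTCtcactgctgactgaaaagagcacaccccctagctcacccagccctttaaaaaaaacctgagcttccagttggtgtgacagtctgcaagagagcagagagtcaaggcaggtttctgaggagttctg
Isg15: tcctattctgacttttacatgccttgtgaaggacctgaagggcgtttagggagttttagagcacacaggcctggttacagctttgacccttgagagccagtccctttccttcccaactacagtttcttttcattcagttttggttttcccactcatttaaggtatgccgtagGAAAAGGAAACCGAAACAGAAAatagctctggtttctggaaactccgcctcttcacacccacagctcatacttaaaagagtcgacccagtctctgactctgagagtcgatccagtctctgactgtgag

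In Gbp2 the ISRE letters begin 59 bases before the start site. Igtp holds ISRE letters 34 and GAS letters 45 bases before its start, a pair separated by 2 other bases. Irgm1 has 2 ISRE matches, at 30 and 24 bases, that share 4 bases. Irf1 has a GAS match 90 bases before the start and no ISRE letters in this window. The Ifit1 matches lie 104 and 85 bases before the start, and Isg15 has a run of 3 overlapping matches from 78 to 66 bases. Gbp2, Gbp3, Gbp5 and Gbp7 are neighbours on chromosome 3, between the start of Gbp5 at 142493978 and the end of Gbp2 at 142638008 (GRCm38), while Gbp4 and Gbp6 are on chromosome 5. Reads of near-identical Gbp genes, and of Ifit3 and its copy Ifit3b, could be split or lost in counting, so single values of these genes are less certain than those of Igtp, Irgm1 or Irf1.

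Fold changes come from edgeR's quasi-likelihood test on UMIs summed per library and gate, with p-values adjusted by Benjamini-Hochberg over all genes tested in the gate. A gene was called when its adjusted p was under 0.05 and its log2 fold change at least 1 in size. Counts of members at an unadjusted p, by DESeq2 or without 1 library are given with no share of all genes. Such counts are no result about the members. Gate-level CPM of the members, of pathway genes and of immediate-early and heat-shock genes carry edgeR's TMM scaling. All other CPM are plain. These are sums over a list, single genes outside those lists such as Smo or Cd8a, values for parts of a gate, and the sorted library.

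Across skin the 22 type I members were most abundant in vascular, neural and mural gates and low in keratinocytes and Langerhans cells. Their summed level in control libraries 1 and 2 was 1703 and 1308 CPM in the pericyte or vascular muscle gate, 1430 and 2374 in blood endothelial cells, 1394 and 1308 in Schwann cells and 1068 and 1199 in lymphatic endothelial cells. Fibroblasts held 506 and 568 CPM, the T or innate lymphoid gate 342 and 357, and the papilla gate 245 and 211. Basal keratinocytes held 107 and 103 CPM and suprabasal keratinocytes 59.9 and 54.3, with Langerhans cells at 84.5 and 107. In blood endothelial cells of control library 2 a single cell held a large part of the type I UMIs, as given below. The 14 gamma-type members had the same gates at the top in another order. They were at 3066 and 2271 CPM in the pericyte or vascular muscle gate, 2761 and 2422 in Schwann cells and 1687 and 2239 in blood endothelial cells. Neighbouring gates in these orders overlap between libraries at the top, and no test was made between gates because the members were given as a list. Fewer expressing cells and less RNA per cell cannot be told apart in such sums.

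**Figure D1:**
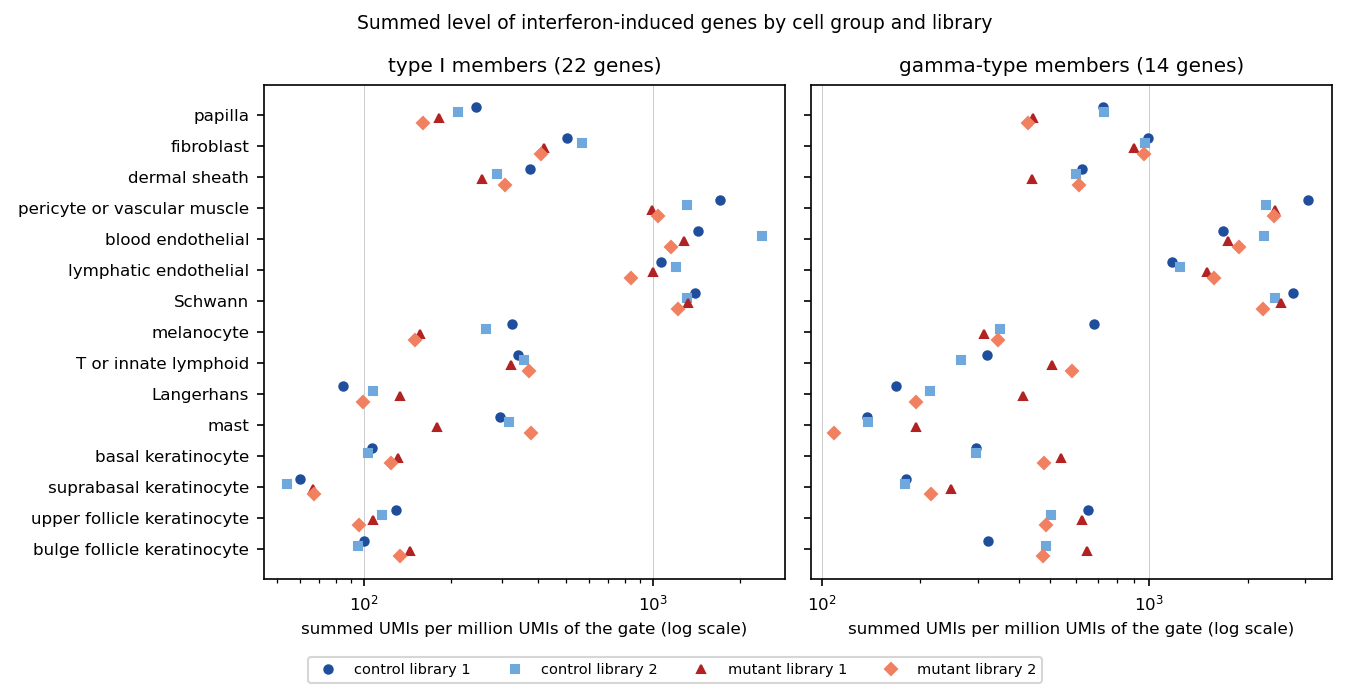
Summed UMIs of the 22 type I (left) and 14 gamma-type members (right) in CPM of each gate, on a log axis. Each point is 1 library, and the mutant points lie to the right of both controls for gamma-type members in basal keratinocytes (538 and 479 against 297 and 296) and in the T or innate lymphoid gate (506 and 582 against 320 and 266).

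Basal keratinocytes, the dividing layer of the epidermis, showed the largest number of called members among the 15 gates. The tested genes of this gate also held the most UMIs of the 15, 52049696 to 74812527 a library. The part of this depth in the number called was not tested. Of 35 tested features 10 were higher in the mutant and 0 lower, against 1.37% of 15523 genes called higher, and DESeq2 called 9 members. Of the 10, 8 were GTPases, out of 9 in the list, and the others were Parp14 and Ifit1. The 35 had a median log2 fold change of 0.39, and 21 had an unadjusted p under 0.05. Not tested for low counts were Ifi44, with 3 to 6 UMIs a library, and the second Gbp6 feature, with 0 in each. The count fell to 5 without mutant library 1, and was 8 to 9 without any of the other 3 libraries.

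Guanylate-binding proteins are large GTPases that coat and break up vacuoles of intracellular pathogens. Gbp2 was at 9.98 and 8.83 CPM in control libraries 1 and 2 and at 96.6 and 77.8 CPM in mutant libraries 1 and 2. Both mutant values stood far above both controls, a log2 fold change of 3.21 ± 0.10 (n = 2 libraries a genotype, edgeR adjusted p = 3.59e-08). Here and below, ± is an approximate standard error (SE), the size of the log2 value divided by the square root of edgeR's F statistic. That statistic borrows its spread from all genes of the fit, so the SE is not the spread of 2 libraries alone. These levels rest on 653 to 739 UMIs in the control and 4067 to 5096 in mutant libraries. Gbp7 was at 2.23 and 2.41 CPM in control libraries and 21.8 and 18.4 in mutant libraries, a log2 fold change of 3.11 ± 0.10 (edgeR adjusted p = 4.4e-08). Gbp3 was lower in abundance, at 1.08 and 0.933 against 3.49 and 3.1 CPM, and its log2 fold change was 1.71 ± 0.14, a call lost without mutant library 1 (edgeR adjusted p = 0.0589). Gbp6, at 0.459 and 0.487 against 1.14 and 1.11 CPM, had a log2 fold change of 1.25 ± 0.21 (edgeR adjusted p = 0.00225), and this call too was lost without mutant library 1 (edgeR adjusted p = 0.0822). Gbp4 was called by a narrow margin (log2 1.26 ± 0.40, edgeR adjusted p = 0.0486) from 23 to 67 UMIs a library, and it lost the call without any 1 of the 4 libraries. Gbp5, at 0.405 and 0.379 CPM in control libraries and 0.303 and 0.804 in mutant libraries, overlapped between genotypes and was not called.

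Immunity-related GTPases act at the same vacuoles, Iigp1 as an effector and Igtp and Irgm1 as regulators. Igtp was at 4.65 and 4.08 CPM in control libraries and 43.7 and 35.1 CPM in mutant libraries. Irgm1 was at 4.34 and 3.65 CPM in control libraries and 31.9 and 23.8 in mutant libraries. Iigp1 was at 2.28 and 2.37 CPM in control libraries and 10 and 11.5 in mutant libraries. The log2 fold changes of Igtp, Irgm1 and Iigp1 were 3.17 ± 0.11, 2.80 ± 0.14 and 2.21 ± 0.10 (edgeR adjusted p = 6.59e-08, 9.45e-07 and 3.93e-07).

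The remaining gamma-type members were not called. Irf1, the transcription factor that relays the interferon gamma response, was at 68.7 and 71.7 CPM in control libraries and 108 and 96.8 in mutant libraries, a log2 fold change of 0.55 ± 0.05 that passed the adjusted p and not the fold limit. Nlrc5, which turns on MHC class I genes, was at 51.2 and 52 against 65.1 and 61.8 CPM (log2 0.30). Psmb8 and Psmb9 are subunits of the immunoproteasome, and Tap1 is part of the peptide transporter that feeds MHC class I. Psmb8 was at 93.5 and 89.6 CPM in control libraries and 84.7 and 81.8 in mutant libraries (log2 −0.14), and Psmb9 had a log2 fold change of −0.24 and Tap1 of 0.24. These 3 antigen-processing members together were at 153 and 149 CPM in control libraries and 151 and 146 in mutant libraries, where the 9 GTPases went from 25.5 and 23.5 to 212 and 174.

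Among 21 type I members tested in basal keratinocytes, Parp14 and Ifit1 were called. Parp14, an ADP-ribosyltransferase, was at 11.9 and 13.4 CPM in control libraries and 26.3 and 25 in mutant libraries, a log2 fold change of 1.02 ± 0.06 (edgeR adjusted p = 2.76e-06). Its call was lost without control library 1 (log2 0.94, under the fold limit) and without mutant library 1 (log2 0.98, edgeR adjusted p = 0.0557). Ifit1, which binds foreign RNA ends, was at 4.55 and 2.42 CPM in control libraries and 9.19 and 8.4 in mutant libraries (log2 1.33 ± 0.20). The Ifit1 call was lost without control library 2 (log2 0.95, under the fold limit) and without mutant library 1 (edgeR adjusted p = 0.171). Other type I members were not called. Isg15, a ubiquitin-like protein, was at 4.74 and 4.43 against 5.02 and 5.47 CPM, Bst2, which tethers budding viruses, at 11 and 10.7 against 10.2 and 9.95, and Ifi27l2a at 19.2 and 18.3 against 14.9 and 17.3. Irf9, the DNA-binding partner of Stat2, was at 17.3 and 17.5 against 21.7 and 19.6 CPM (log2 0.25). Usp18, a protease that removes Isg15 and dampens type I signalling, was at 6.83 and 6.44 against 4.8 and 4.36 (log2 −0.53, edgeR adjusted p = 0.00174). Stat2 was at 3.99 and 4.19 against 6.03 and 4.82 CPM, Ddx58, a sensor of viral RNA, had a log2 fold change of 0.39 and Xaf1 of 0.58. The remaining tested type I members, Rtp4, Ifit2, Trim30a, Oasl1, Rsad2, Cmpk2, Zbp1, Irf7, Ifit3, Oasl2 and Ifih1, were called in neither direction, and of these Ifit2, Oasl1, Trim30a, Rtp4, Cmpk2 and Ifit3 stayed under 1 CPM in every library. At an adjusted p under 0.05 with no fold limit, 6 type I members were higher and 2 lower, and 11 gamma-type members were higher and 2 lower, where 21.1% of all genes passed in either direction.

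**Figure D2:**
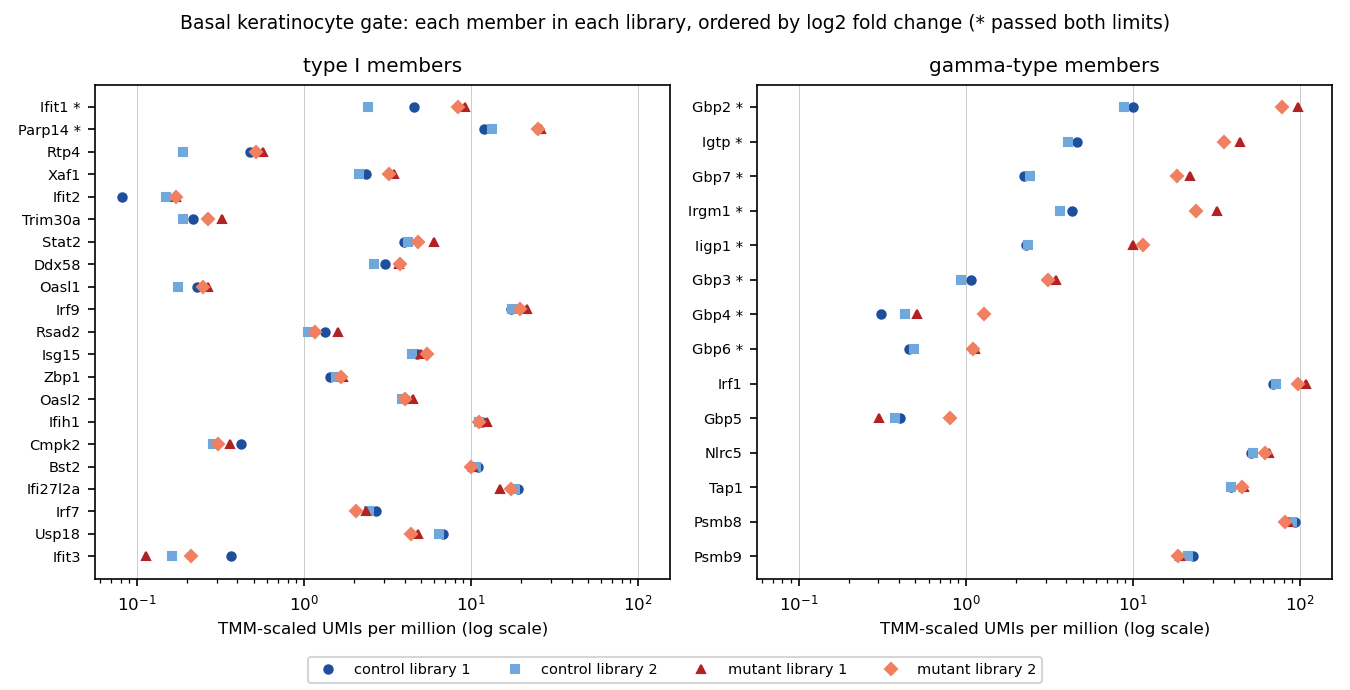
TMM-scaled CPM of each tested member in the basal keratinocyte gate on a log axis, type I members left and gamma-type right, ordered by log2 fold change. Each point is 1 library, and an asterisk marks the 10 members called, of which 8 are GTPases, with Gbp2 at 9.98 and 8.83 CPM in control libraries and 96.6 and 77.8 in mutant libraries.

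Other genes of the pathway in basal keratinocytes are drawn from 5 fixed lists. Of 31 tested other interferon-induced genes 4 were called higher and 0 lower. Cxcl9 and Cxcl10 are chemokines that draw T cells through Cxcr3. Cxcl9 was at 4.74 and 4.87 CPM in control libraries and 46.6 and 51.9 in mutant libraries (log2 3.36 ± 0.06). Cxcl10 went from 50.1 and 60.3 to 382 and 300 CPM (log2 2.62 ± 0.11). The GTPase Irgm2, at 1.65 and 1.55 against 15.8 and 12.2 CPM, and Ifi47, at 0.946 and 0.919 against 5.97 and 6.74, had log2 fold changes of 3.13 and 2.77. Of 3 tested ligands Ifnl2, an interferon lambda, was called on 0.162 and 0.176 against 0.512 and 0.287 CPM (edgeR adjusted p = 0.0462), a call lost without control library 1, control library 2 or mutant library 1. None of 6 receptor, 11 signalling and 6 inhibitor genes was called. Ifngr1 was at 41 and 39.3 against 34.5 and 35 CPM, Ifngr2 at 10.2 and 9.8 against 10.3 and 9.89, Ifnar1 at 17.2 and 16.1 against 18.6 and 20.3 and Ifnar2 at 28.8 and 28.5 against 24.9 and 24.7. Ifng was at 0.108 to 0.21 CPM in the 4 libraries.

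What the basal gate held also differed between genotypes. Epgn, a ligand of the EGF receptor, and Tslp, a cytokine of epithelia, were at 2375 and 2444 and at 4171 and 4073 CPM in control libraries and at 3067 and 2859 and at 5556 and 5069 in mutant libraries. Mki67, a marker of cycling cells, was at 23.7 and 23.9 against 16.8 and 14.3 CPM. The 15 fibroblast markers summed to 175 and 206 CPM in control libraries and 287 and 291 in mutant libraries, the 12 blood endothelial markers to 30.2 and 30.8 against 32.4 and 35.3, and the 13 listed lymphocyte markers to 65 and 65.2 against 60.7 and 73.4. Their part in the result was not tested. The fibroblast gate itself held more GTPase RNA than mutant basal keratinocytes (396 and 393 CPM in the control).

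Most GTPase RNA of mutant basal keratinocytes sat in few cells. A cell was called high when the 9 GTPases made up at least 1 in 1000 of its UMIs and at least 5 UMIs, a limit chosen with the data in view, so these values are a description with no test. High cells numbered 17 of 2572 and 8 of 2577 in control libraries 1 and 2 and 85 of 1865 and 62 of 1998 in mutant libraries 1 and 2. As shares with exact (Clopper-Pearson) 95% intervals, these were 0.661% (0.386 to 1.06) and 0.310% (0.134 to 0.611) in control libraries and 4.56% (3.66 to 5.61) and 3.1% (2.39 to 3.96) in mutant libraries. The intervals cover counting error over the cells of a library only, so they give no comparison of genotypes. High cells held 76.9% and 70.6% of all GTPase UMIs in the mutant libraries and 21.2% and 14.4% in the controls. The most loaded cell had 512 and 740 GTPase UMIs in mutant libraries 1 and 2 and 89 and 85 in the controls. Outside high cells the GTPases were at 20.1 CPM in both controls and 51.8 and 53 CPM in mutant libraries, so a smaller difference remained in the other cells. Of all basal cells, 27.7% and 28.1% had any GTPase UMI in the control and 42.4% and 37.5% in mutant libraries, at median depths of 16680, 16937, 17089 and 16156 UMIs.

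**Figure D3:**
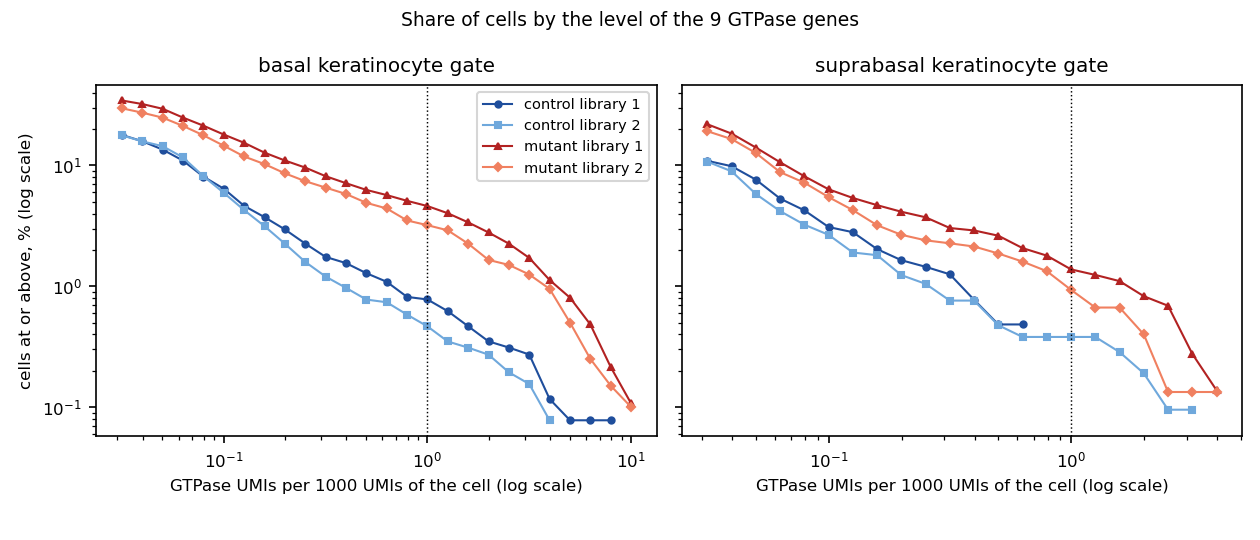
Share of basal (left) and suprabasal keratinocytes (right) whose GTPase UMIs per 1000 UMIs reach at least the value on the horizontal axis, both axes log. Each line is 1 library and the dotted line is the limit of 1 per 1000, drawn without the minimum of 5 UMIs, and the mutant lines run above the control lines in the basal panel.

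High cells were compared with the other basal cells by depth and by markers. Their median was 20819 and 18717 UMIs in the mutant against 16979 and 16083 in the other mutant cells. The blood endothelial markers summed to 37.9 and 37.1 CPM in mutant high cells and to 32.1 and 35.2 in the others, and the 10 basal keratinocyte markers to 14350 and 14236 against 14470 and 14487. Fibroblast markers were at 737 and 274 CPM in mutant high cells against 260 and 292. Langerhans cell markers summed to 604 and 554 CPM in mutant high cells against 362 and 434, and bulge markers to 262 and 333 against 468 and 449. In the 17 and 8 control high cells the blood endothelial markers summed to 547 and 546 CPM and the fibroblast markers to 3478 and 10718, at medians of 9867 and 6133 UMIs. The basal markers of these control cells summed to 11324 and 13899 CPM against 15474 and 15454 in the other cells. The part of other cell types in the control and mutant high cells was not tested.

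In mutant high cells other members went with the GTPases that define them. Irf1 was at 555 and 602 CPM in high cells of mutant libraries 1 and 2 and at 83 and 78.1 in the other cells, a ratio of 7.12 in the pooled counts. Parp14 was at 173 and 233 against 17.9 and 17.3 CPM, and Ifit1 at 39.6 and 80 against 7.48 and 5.74. Among antigen-processing members, Tap1 was at 206 and 260 against 36.9 and 37.1 CPM, Psmb9 at 69.7 and 75.8 against 16.3 and 16.5, and Psmb8 at 242 and 248 against 76.3 and 75.9. Psmb8 and Tap1 thus had pooled ratios of 3.2 and 6.13 in these cells, although neither was called between genotypes over the whole gate. Xaf1 and Oasl2, both type I members, had ratios of 13.6 and 7.03. Isg15 was at 11.3 and 14.8 against 4.71 and 5.14 CPM and Bst2 at 24.9 and 20.1 against 9.47 and 9.61. Usp18 and Ifi27l2a had ratios of 1.04 and 0.946. Of genes outside the list, Cxcl10 was at 5440 and 6075 CPM in high cells against 85.2 and 83.8, and Cxcl9 at 690 and 1199 against 8.88 and 8.97. The receptor genes Ifngr1 and Ifnar1 had ratios of 0.837 and 0.797.

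**Figure D4:**
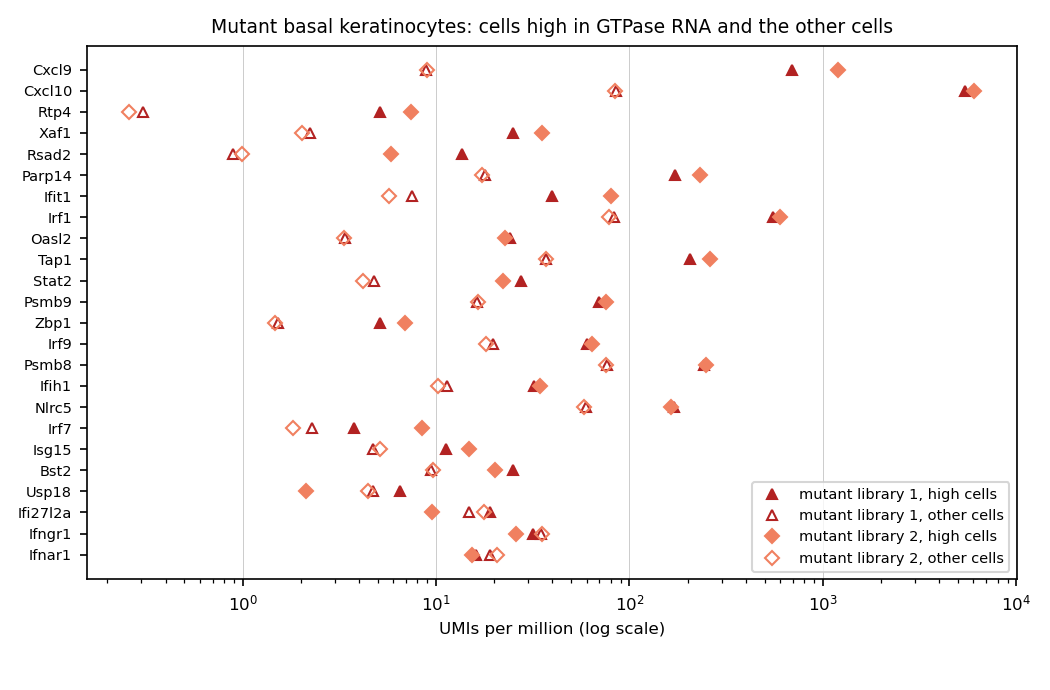
CPM in mutant basal keratinocytes high in GTPase RNA (filled) and in the other mutant basal cells (open), on a log axis, for mutant libraries 1 (triangles) and 2 (diamonds). Genes are ordered by the ratio, from Cxcl9 at 690 and 1199 against 8.88 and 8.97 CPM down to Ifngr1 and Ifnar1, whose ratios were 0.837 and 0.797. Members with few UMIs in the high cells were left out, so members absent there are not shown. The GTPases that define the high cells were also left out.

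Cells with at least 3 different members of a type were also counted. After each cell was thinned to 2000 UMIs, 2.01% and 2.40% of control and 6.38% and 5.55% of mutant basal cells had at least 3 gamma-type members, and 0.433% and 0.552% of control and 0.381% and 0.560% of mutant cells had at least 3 type I members. Thinning left out 30 to 39 basal cells a library. Without thinning the gamma-type shares were 53.9% and 53.9% against 56.9% and 52.4%, and at that depth the genotypes overlapped.

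Suprabasal keratinocytes, which have left the basal layer to form the barrier, had fewer members called. Of 27 tested members 6 were higher and 0 lower, against 1.03% of 12280 genes called higher, with 14 at an unadjusted p under 0.05 and 5 called by DESeq2. Igtp was at 2.81 and 3.23 CPM in control libraries and 16.1 and 12.6 in mutant libraries (log2 2.25 ± 0.16). Gbp2 was at 5.32 and 4.8 against 30.2 and 18 CPM (log2 2.25 ± 0.22). Irgm1, at 1.99 and 1.65 against 8.8 and 6.52 CPM, had a log2 fold change of 2.07 ± 0.20. Gbp7, at 0.995 and 0.868 against 4.08 and 3.44 CPM, had 2.01 ± 0.24, and Parp14, at 2.9 and 2.85 against 8.21 and 7.35, had 1.44 ± 0.15. Gbp6 was called on 4 and 2 against 16 and 9 UMIs (log2 2.48 ± 0.59, edgeR adjusted p = 0.034) and lost the call without control library 1, control library 2 or mutant library 1. All 6 were higher in both mutant libraries than in either control, which largely follows from their having been called and adds no support.

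Other members of the suprabasal gate were not called. Nlrc5 was at 65.5 and 66 against 70.7 and 69.9 CPM, Irf1 at 34.6 and 35.1 against 43.9 and 39.5, and Psmb8 at 35 and 33.2 against 29.4 and 27.6. Of type I members, Irf9 was at 20.4 and 20.2 against 25.4 and 22.3 CPM, Ifih1, a sensor of viral RNA, at 8.22 and 7.15 against 6.23 and 6.1, and Bst2 at 6.49 and 7.03 against 5.77 and 5.04. Of 26 other interferon-induced genes 5 were called higher, namely Irgm2 (log2 2.58), Cxcl9 (1.90), Cxcl10 (1.51), the ubiquitin ligase Dtx3l (1.46) and Herc6 (1.04). Without mutant library 1 Cxcl10 and Herc6 fell under the fold limit, at 0.89 and 0.93. Cd74, the MHC class II invariant chain, was the 1 called lower, at 51.3 and 67.3 against 22.3 and 23.3 CPM (log2 −1.38 ± 0.12). Cd207, a Langerhans cell marker, was at 16.3 and 44.9 against 12.9 and 13 CPM in this gate, and its part in the Cd74 value was not tested. High cells numbered 0 of 1035 and 3 of 1051 in control libraries and 10 of 725 and 7 of 750 in mutant libraries. A count of 0 of 1035 allows by its exact interval a share of up to 0.356%. Ifngr1 was at 22.4 and 21.5 against 18.6 and 20.7 CPM, Ifngr2 at 17.4 and 19.2 against 18.1 and 16.9, Ifnar1 at 5.97 and 6.12 against 6.41 and 6.46 and Ifnar2 at 7.66 and 9.22 against 6.58 and 7.53. None of these 4 was called.

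Tests of the difference itself, an interaction of gate and genotype with the library as a block, compared effects between gates. Between fibroblasts and basal keratinocytes 9 members differed, against 1.44% of 15866 genes, all with the larger effect in basal keratinocytes. These were Gbp7 (a difference of log2 fold changes of 3.17), Gbp2, Igtp, Irgm1, Ifit1, Iigp1, Gbp3, Parp14 and Gbp6. Pairs of gates beyond those planned were added after the data were seen. From fibroblasts to suprabasal keratinocytes 6 members differed, against 1.05% of genes, and all 6 were those called in that gate. From basal to suprabasal keratinocytes 2 differed, against 0.222% of genes, Gbp7 (−1.14 ± 0.24, SE) and Gbp2 (−1.01 ± 0.16), both with the smaller effect in suprabasal cells.

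In the T or innate lymphoid gate most gamma-type members passed the adjusted p and few of them the fold limit. Of 30 tested members 3 were called higher and 0 lower, against 2.13% of 11132 genes called higher, and 19 had an unadjusted p under 0.05. With no fold limit 15 were higher and 3 lower, of which 11 of the 14 gamma-type members were higher, where 27.5% of all genes passed in either direction. All 14 gamma-type fold changes were above 0, and the median over the 30 members was 0.73, against 0.014 over all genes. DESeq2 called 1. Without 1 library in turn the count was 2 to 10, with 2 without mutant library 2, 4 without control library 2, 7 without control library 1 and 10 without mutant library 1.

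Gbp2 was at 21 and 12.5 CPM in control lymphocytes and 39 and 40.7 in mutant libraries (log2 1.25 ± 0.15, edgeR adjusted p = 2.17e-09). Iigp1 was at 6.24 and 2.18 against 7.87 and 13.8 CPM (log2 1.37 ± 0.30). Without control library 2 both fell under the fold limit, Gbp2 at 0.92 and Iigp1 at 0.79, and without mutant library 2 Iigp1 did, at 0.91. Ifit1 was also called, on 3.21 and 1.27 CPM in control libraries and 1.34 and 23.9 in mutant libraries, so the genotypes overlap. The Ifit1 value rested on mutant library 2: without it the log2 fold change was −0.72 (edgeR adjusted p = 0.557). In that library 1 cell held 185 of 1918 type I UMIs of the gate, 9.65%.

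The 3 antigen-processing members passed the adjusted p in lymphocytes, all above the control and all under the fold limit. Psmb8 was at 61.1 and 67 CPM in control libraries and 113 and 108 in mutant libraries (log2 0.78 ± 0.08). Psmb9 was at 28.4 and 20.1 against 39 and 51 CPM (log2 0.90), Tap1 at 44.1 and 32.5 against 57.6 and 69.3 (log2 0.73), and Irf1 at 42 and 35.2 against 59.3 and 78.3 (log2 0.84). Igtp and Gbp7 had log2 fold changes of 0.98 and 0.97, just under the limit. Type I members went both ways. Bst2 was at 150 and 154 against 78.3 and 82.9 CPM (log2 −0.92, edgeR adjusted p = 7.15e-15) and Oasl2 at 37.4 and 39.4 against 22.5 and 21 (log2 −0.82). Isg15 was at 30.4 and 31.6 against 20.3 and 27.1, while Ifi27l2a was at 37.4 and 46.1 against 71.2 and 79.5 (log2 0.85). The interaction test between basal keratinocytes and lymphocytes, added after the data were seen, called 7 members, against 2.37% of genes. Gbp7, Gbp3, Gbp2, Irgm1 and Igtp had the smaller effect in lymphocytes, by 1.33 to 2.20 on the log2 scale, and Psmb9 (1.16 ± 0.15) and Ifi27l2a (1.09 ± 0.11) the larger.

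The makeup of the lymphocyte gate differed between genotypes. Cd8a was at 44.7 and 41.1 against 89.1 and 101 CPM, Cd4 at 9.04 and 8.61 against 24.8 and 19.3, and Gucy2c, a guanylate cyclase receptor, at 278 and 279 against 122 and 118. Hspa1a, a heat-shock gene, was at 1834 and 1566 against 593 and 559 CPM, and 11 of 15 immediate-early and heat-shock genes were lower at an adjusted p under 0.05. Fibroblast markers summed to 297 and 288 against 600 and 669 CPM. Their part in the values of the members was not tested.

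Ifng itself was detected chiefly in this gate and in cells that no gate took. In the T or innate lymphoid gate Ifng had 157 and 81 UMIs in the control and 110 and 181 in mutant libraries, which is 29.7 and 14.7 against 21.1 and 34.6 CPM. The genotypes overlapped (log2 0.34 ± 0.18, edgeR adjusted p = 0.187). Cells with an Ifng UMI numbered 31 and 37 in control libraries and 62 and 64 in mutant libraries, 2.53% and 3% against 6.35% and 6.27%. Thinned to 2000 UMIs the shares were 1.77% and 1.92% against 2.73% and 3.40%. Their exact 95% intervals overlap, and these cover counting error over cells only. In basal keratinocytes, which are not known to make Ifng, the unthinned share was 0.311% to 0.551%. Unassigned cells held 31 and 129 Ifng UMIs in the control and 226 and 139 in mutant libraries. Of the receptor genes Ifngr1 was at 474 and 448 against 687 and 650 CPM (log2 0.54), Ifngr2 at 52.6 and 63.5 against 39 and 44.3, Ifnar1 at 137 and 130 against 153 and 138 and Ifnar2 at 38 and 34.3 against 46.1 and 43.7. Of 29 other interferon-induced genes Cxcl9 (log2 2.20), Cxcl10 (1.51) and Ifi47 (1.23) were called higher and 0 lower.

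Lymphatic endothelial cells had 2 called members of 30, both higher, against 0.467% of 7494 genes called higher. Gbp4 was at 28.9 and 46.2 CPM in control libraries and 88.9 and 75 in mutant libraries (log2 1.12 ± 0.24, edgeR adjusted p = 0.0173). Gbp2 was at 85.3 and 99.7 against 228 and 151 CPM (log2 1.04 ± 0.20). Both calls were lost without control library 1, control library 2 or mutant library 1. Iigp1, at 253 and 312 against 401 and 536 CPM, passed the adjusted p with a log2 fold change of 0.73, and Irf1 was at 314 and 286 against 292 and 295. Ifi27l2a was at 245 and 228 against 154 and 123 CPM (log2 −0.77, edgeR adjusted p = 0.00576), Bst2 at 385 and 341 against 409 and 368, and Isg15 at 111 and 101 against 82.3 and 58.1. DESeq2 called 1 member, and without control library 2 edgeR called 0, with 12 of the 30 at an unadjusted p under 0.05 when all libraries were used. Cxcl10 was the pathway gene called (log2 1.68), a call lost without control library 1. The cells were deeper in the mutant, at medians of 4668 and 4429 against 3312 and 3630 UMIs, which was not tested as a cause.

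Papilla cells, mesenchyme that signals to the hair follicle epithelium, had 2 members higher and 1 lower of 27 tested, against 4.11% and 2.05% of 12516 genes. With so few members these counts are near the background. Gbp2 was at 11.8 and 9.65 CPM in control libraries and 26.9 and 25.4 in mutant libraries (log2 1.29 ± 0.16, edgeR adjusted p = 2.03e-05). Iigp1 was at 1 and 1.21 against 3.05 and 3.63 CPM (log2 1.57 ± 0.44), and its call was lost without any 1 of the 4 libraries. Oasl2, an oligoadenylate synthetase-like protein, was at 7.26 and 6.75 against 2.56 and 3.47 CPM (log2 −1.21 ± 0.29). DESeq2 called 1 member, and edgeR called 2 to 5 without 1 library in turn, with 5 without control library 2.

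With no fold limit 3 papilla members were higher and 7 lower, and 26.8% of all genes passed. Irf1 was at 596 and 621 CPM in control libraries and 326 and 314 in mutant libraries (log2 −0.93 ± 0.05, edgeR adjusted p = 2.78e-09). Stat2 was at 29 and 27.7 against 16.4 and 12.2 CPM (log2 −0.99), Irgm1 at 29.3 and 20.3 against 15.9 and 14.2 (log2 −0.72), Irf9 at 58.3 and 55.7 against 44.7 and 37.1, Isg15 at 36.5 and 34.7 against 29 and 23.2, and Psmb8 at 29.3 and 23.2 against 21.2 and 20.1. Of the 15 immediate-early and heat-shock genes 14 were also lower in mutant papilla cells at an adjusted p under 0.05, with Hspa1a at a log2 fold change of −1.56 and Egr1 at −1.06. Mutant papilla cells were more numerous, 680 and 693 against 222 and 235, and shallower, at medians of 6403 and 6193 against 8661 and 9510 UMIs. Genes and markers of other cell types differed too: Pecam1 of endothelium was at 69.9 and 90.8 against 43.4 and 54.2 CPM, Col1a1 of fibroblasts at 158 and 166 against 310 and 302, and Acta2 of the dermal sheath at 14.3 and 10.2 against 30.9 and 31.1. Summed fibroblast markers were at 1266 and 1250 CPM in control libraries and 2154 and 2231 in mutant libraries, and suprabasal markers at 998 and 1091 against 626 and 620. The part of these differences in the values of the papilla members was not tested. Called pathway genes were Cd74 (log2 1.13), H2-Ab1 (1.11) and Cxcl10 (1.07), all higher and all under the fold limit without control library 1, at 0.88 to 0.99. Ifngr1 was at 27.8 and 21.7 against 30.6 and 29.2 CPM, Ifngr2 at 12.5 and 14 against 11.9 and 11.8, Ifnar1 at 18.5 and 12.3 against 13.9 and 14.4 and Ifnar2 at 39.5 and 40.8 against 36.9 and 49.4.

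Fibroblasts had 0 called of 34 members by edgeR and by DESeq2, against 1.62% of 13164 genes, with 18 at an unadjusted p under 0.05. All 20 tested type I members had a fold change below 0, with a median of −0.34 against −0.00025 over all genes, and the 14 gamma-type members had a median of −0.01. The cells of this gate differed between genotypes in other ways: eGFP, the reporter of the Lepr lineage, was at 57 and 62.1 CPM in control libraries and 297 and 332 in mutant libraries, and Lepr at 65.1 and 54.7 against 164 and 139. Of the 15 immediate-early and heat-shock genes 7 were lower in mutant fibroblasts at an adjusted p under 0.05 with no fold limit. The part of either in the member values was not tested. With no fold limit 1 was higher and 7 lower, where 11.9% of all genes passed. Irgm1 was higher, at 54.6 and 48.1 against 72.9 and 67.1 CPM (log2 0.45 ± 0.08). Bst2 was at 130 and 138 against 106 and 101 CPM (log2 −0.38), Psmb8 at 108 and 114 against 80.9 and 88.3 (log2 −0.39), and Ifit3, Usp18, Xaf1, Parp14 and Irf1 were the others below, with log2 fold changes from −0.77 to −0.18. Gbp2 was at 101 and 101 against 96.6 and 123 CPM, Iigp1 at 113 and 118 against 123 and 161, Isg15 at 45.7 and 61.6 against 45.5 and 39.7 and Irf9 at 43.4 and 45.1 against 40.8 and 40.3. Ifngr1 was at 93.8 and 95.3 against 84.8 and 89.3 CPM, Ifngr2 at 32.6 and 33.9 against 29.4 and 30.9, Ifnar1 at 22.5 and 22.6 against 19.7 and 21.3 and Ifnar2 at 48.2 and 51.4 against 54.1 and 57.9, and none of them was called. Cells with at least 3 gamma-type members, thinned to 2000 UMIs, made up 12.5% and 14.5% in control libraries and 12.7% and 14.5% in mutant libraries, so they were common in both genotypes. The interaction test of papilla against fibroblast called Gbp2 (1.21 ± 0.19), Iigp1 (1.32 ± 0.44) and Irgm1 (−1.12 ± 0.16), against 4.67% of 13781 genes. Irgm1 thus went in opposite directions in these mesenchymal gates. With so few members called, the count of this interaction test is near the background.

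**Figure D5:**
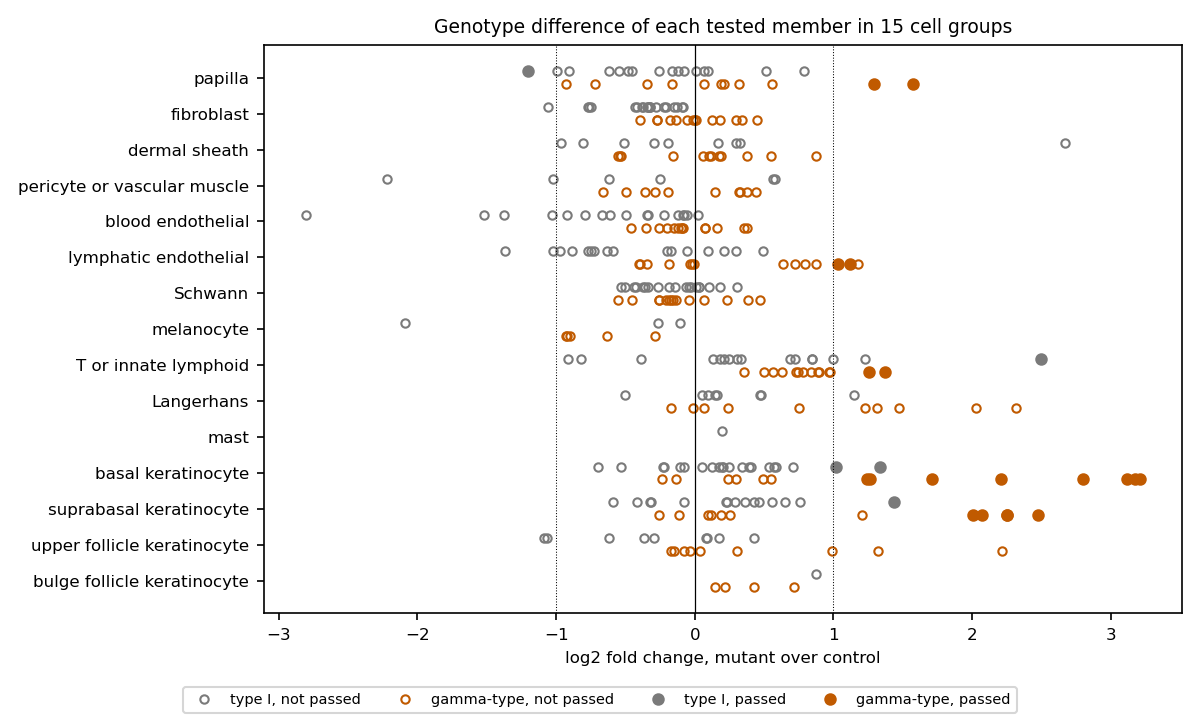
Log2 fold change, mutant over control, of each tested member in each of 15 gates, type I in grey and gamma-type in orange, filled where the gene was called. Called gamma-type members reach 3.21 in basal keratinocytes, while all 20 grey points of fibroblasts lie left of 0.

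In the gates with the highest levels no member was called. Their tested genes held few UMIs a library: 566533 to 934323 in blood endothelial cells, 1461441 to 1682939 in Schwann cells and 109627 to 210383 in the pericyte or vascular muscle gate. Basal keratinocytes had 52049696 to 74812527, so a missing call here does not show a missing difference. Blood endothelial cells had 0 of 31 called (0.493% of genes called) with 8 at an unadjusted p under 0.05, and Schwann cells 0 of 33 (0.148%) with 4. The pericyte or vascular muscle gate had 0 of 16 (0.181%) with 3, and DESeq2 also called 0 in each. In blood endothelial cells some members were called when a library was left out, which shows only that the calls moved. Blood endothelial Isg15 was at 333 and 528 CPM in control libraries and 306 and 238 in mutant libraries, Bst2 at 374 and 413 against 366 and 377, and Iigp1 at 355 and 582 against 363 and 482. One blood endothelial cell of control library 2 held 625 of 1527 type I UMIs, 40.9%, and Ifit1 was at 474 CPM there against 32.9, 33.8 and 38.8 in the other libraries. Schwann cells, the glia of nerve fibres, had Gbp2 at 902 and 779 against 793 and 684 CPM and Isg15 at 238 and 190 against 231 and 204. Iigp1 in the pericyte or vascular muscle gate was at 1977 and 1164 against 1209 and 1517 CPM, and Isg15 at 802 and 697 against 420 and 557, over 28 and 44 control and 51 and 50 mutant cells.

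Langerhans cells, the dendritic cells of the epidermis, had 0 of 18 called (0.437% of genes) with 4 at an unadjusted p under 0.05. Their Gbp2 was at 5.24 and 23.6 CPM in control libraries and 76.8 and 5.16 in mutant libraries, and 1 cell of mutant library 1 held 374 of 548 GTPase UMIs, 68.2%. Leaving out a library moved the number called in Langerhans cells, which is no result about the members. With all libraries Cxcl9 was called there (log2 4.87 ± 0.77), at 1.17 and 2.23 against 83.6 and 20.2 CPM. No member was called in the dermal sheath (0 of 21 called, 0.776% of genes), upper follicle keratinocytes (0 of 18, 0.195%), bulge keratinocytes (0 of 5, 0.124%), melanocytes (0 of 8, 0% of genes) and mast cells (0 of 1, 2.82%). At an unadjusted p under 0.05 these had 4, 5, 1, 2 and 0 members, and DESeq2 called 0 in each, Langerhans cells included. Upper follicle keratinocytes held Irf1 at 347 and 259 against 318 and 220 CPM and summed GTPases at 29.6 and 36.8 against 64.9 and 36.9. Macrophages or monocytes, with 8 to 16 cells a library, were too few to compare. Over all kept cells of a library Igtp, Gbp2, Irgm1 and Gbp7 were called higher (log2 1.47, 1.34, 1.30 and 1.10), against 4.34% of 18003 genes called in either direction. Shares of cell types differ between genotypes in that sum, and their part in it was not tested.

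In the sorted GFP-positive library the members were described only, since it is 1 library of another chemistry. Type I members summed to 308 CPM (exact Poisson 95% interval 250 to 375) in 122 papilla cells, 1010 (856 to 1183) in 70 fibroblasts and 1808 (1640 to 1989) in 67 blood endothelial cells. Gamma-type members summed to 455 (384 to 536), 660 (537 to 803) and 2255 (2067 to 2455) CPM. Blood endothelial cells thus held the most of both, and Iigp1, Bst2 and Irf1 led there at 515, 485 and 438 CPM. In papilla cells Irf1 led at 166 CPM from 53 UMIs, and Psmb8 followed at 97.3 from 31. The sorted library held 9 basal and 2 suprabasal keratinocytes, too few to describe.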

How the data were processed

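The authors deposited raw UMI counts by gene and barcode for 4 unsorted and 1 sorted library. Cell Ranger 2.1.1 and 3.1.0, Seurat 3.2.2, Scanpy 1.6.0 and the builds GRCm38 and mm10 are named per the submitters' processing notes. Cells with 500 to 8000 genes (sorted: at least 300) and at most 10% mitochondrial UMIs were kept. Doublets were called by scrublet in scanpy 1.11.5, which removed 166 to 200 cells of each unsorted library. A cell entered a gate when its marker score was at least 0.25, led the next score by 0.05 and at least 3 markers were detected. Cells near that margin made up 5.2% of the basal, 5.14% of the suprabasal, 2.09% of the lymphocyte, 9.94% of the lymphatic, 20.3% of the papilla and 10.1% of the fibroblast gate.

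Counts were summed per library and gate and tested with edgeR 4.0.16 (quasi-likelihood, TMM, filterByExpr; R 4.3.3), 2 libraries against 2, with Benjamini-Hochberg adjustment over all genes. The script was tested on simulated counts. With 2 libraries against 2 the smallest p of an exact permutation test is 0.333, so none is given. Alternatives were DESeq2 1.42.0, RLE scaling, no count filter, stricter gates, at most 5% mitochondrial UMIs, no doublet caller, a replicate block and each library left out. For shares, cells were thinned to 2000 UMIs. Shares and sums carry 95% exact intervals, for counting error only.

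The members and gene lists were chosen with earlier results of these data known. Named genes were, in each gate described, the called members (beyond 8, those with the largest fold changes), the 3 type I and 3 gamma-type members of highest mean level, up to 6 called pathway genes by fold change, and Ifng and the receptors where measured. One gene of the signalling list is not reported here. Members named beyond that rule were chosen after their values were seen. The comparison of fibroblasts with macrophages was not made because the macrophage gate held 8 to 16 cells a library. RefSeq promoters and GENCODE M21 positions use GRCm38.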

Additional observations from a re-analysis of the deposited data

Results flagged for a closer look

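The effect of genotype differed between 2 gates, by an interaction test in edgeR over all genes of both gates, for the members below. From fibroblasts to papilla cells the log2 fold change of Gbp2 was larger by 1.21 (adjusted p = 0.000203) and that of Iigp1 by 1.32 (adjusted p = 0.0475), while that of Irgm1 differed by −1.12 (adjusted p = 8.72e-05), being above 0 in fibroblasts and below 0 in papilla cells. Of all 13781 genes tested 4.67% differed between these gates, and with so few members called the count is near that background.

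From fibroblasts to basal keratinocytes the difference was 3.17 for Gbp7 (adjusted p = 3.29e-09), 3.09 for Gbp2 (adjusted p = 7.11e-09), 2.99 for Igtp (adjusted p = 7.11e-09) and 2.35 for Irgm1 (adjusted p = 5.65e-09). It was 1.92 for Iigp1 (adjusted p = 7.11e-09), 1.70 for Gbp3 (adjusted p = 0.000112) and 1.25 for Gbp6 (adjusted p = 0.00914). Of the type I members it was 2.13 for Ifit1 (adjusted p = 0.00872) and 1.31 for Parp14 (adjusted p = 7.08e-07). Between these gates 1.44% of all 15866 genes tested differed.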

How the results depend on the processing

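Of 42 named fold changes under 539 alternatives, 537 kept their direction, 460 of them also their call, and 77 lost the call. The setting with no fold minimum makes up 42 of the alternatives that kept the call. It reuses the main fit of genes already called, so its outcome was fixed and it adds no support. Counts of called members, summed levels and shares of cells stayed within a set margin in 194 alternatives and moved beyond it in 65. Ifit1 in the lymphocyte gate reversed, to −0.25 at most 5% mitochondrial UMIs and to −0.72 without mutant library 2 (up to 3.41 without another library). With no fold minimum the members called were 10 in papilla, 8 in fibroblasts, 5 in lymphatic endothelium, 18 in lymphocytes, 21 in basal keratinocytes and 27 over all kept cells. Of all tested genes 26.8% passed in papilla, 11.9% in fibroblasts, 27.5% in lymphocytes and 21.1% in basal keratinocytes. For the counts that follow, here and in the next paragraph, no share of all genes is given. They show only how the calls moved and are no result about the members. DESeq2 called 1 each in papilla, lymphatic endothelium and lymphocytes. RLE scaling gave 1 in blood endothelium. No count filter gave 1 in dermal sheath, 4 in blood endothelium, 4 in lymphatic endothelium, 2 in melanocytes, 1 in lymphocytes, 5 in Langerhans cells and 2 in upper follicle. The stricter gate gave 1 in lymphatic endothelium and moved the summed gamma-type log2 difference of papilla from −0.74 to −0.84. At most 5% mitochondrial UMIs gave 2 in dermal sheath, 5 in lymphatic endothelium and 6 in lymphocytes, and moved the summed gamma-type log2 difference of lymphatic endothelium from 0.35 to 0.71. No doublet caller gave 3 in blood endothelium. The cause of these changes was not tested.

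Equal replicate numbers pair nothing in the labels, and same-numbered libraries deviated together with correlations of −0.12 to 0.22. With the replicate block the counts were 10 in basal and 7 in suprabasal keratinocytes, 4 in lymphocytes, 3 in papilla, 3 in lymphatic endothelium, 1 in fibroblasts, 1 in pericytes, 3 in blood endothelium and 5 in Langerhans cells. The crossed pairing, added after the data were seen, gave 3 in blood endothelium, 4 in lymphatic endothelium, 1 in melanocytes and 5 in Langerhans cells. Leaving out 1 library in turn gave 2 to 5 in papilla, 0 to 1 in fibroblasts, 0 to 5 in blood endothelium, 0 to 3 in lymphatic endothelium, 0 to 2 in melanocytes, 2 to 10 in lymphocytes, 0 to 5 in Langerhans cells, 5 to 9 in basal and 5 to 7 in suprabasal keratinocytes, 0 to 1 in upper follicle, 0 to 1 in bulge and 4 to 5 over all kept cells.

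The mutant minus control share of cells with at least 3 members depended on depth. For gamma-type members it was 3.76 percentage points in basal keratinocytes and 2.11 when thinned to 1000 UMIs, 6.85 at 8000 and 0.705 without thinning. In suprabasal keratinocytes it was 1.32, and 0.394, 3.20 and 5.53. In lymphocytes it was 4.54, and 1.81 at 1000 and 13.6 without thinning. For type I members it was −0.0212 in basal keratinocytes, 1.14 at 8000 and −1.25 without thinning, and without thinning 1.68 in suprabasal keratinocytes and 3.83 in lymphocytes. In fibroblasts it was −2.24, and −0.895 at 1000. The 5% limit was not run for pericytes, melanocytes, mast and bulge cells, nor the stricter gate for bulge cells, because too few cells remained.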

Other observations

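Ifnb1 had 8 UMIs over all kept cells of mutant library 1 and 0 in each of the other 3 unsorted libraries. Of the 8, 6 were in suprabasal keratinocytes under the limit for high cells. Only 0.0686% of such cells, pooled over the mutant libraries, had an Ifnb1 UMI. Ifnk, an interferon known from keratinocytes, was among the 10 leading genes of the sebocyte gate, a gate not compared between genotypes. It had 157 and 181 UMIs in basal keratinocytes of control libraries against 102 and 165 in mutant libraries, and 35 UMIs in blood endothelial cells of control library 1. Of the Ifng UMIs of a library, cells that no gate took held 14.9% and 53.1% in control libraries and 64.2% and 40.3% in mutant libraries.

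In basal keratinocytes thinned to 8000 UMIs, Igtp was detected in 12.5% and 8.99% of control cells with a Gbp2 UMI and in 45.5% and 48.6% of such mutant cells. In cells without a Gbp2 UMI the shares were 3.17% and 2.93% in control libraries and 7.19% and 5.15% in mutant libraries. Isg15 was detected in 6.25% and 5.62% of control and 8.91% and 8.29% of mutant cells with a Gbp2 UMI, and in 3.08% and 3.26% of control and 2.58% and 2.70% of mutant cells without one. Cells with a Gbp2 UMI numbered 112 and 89 in control libraries and 202 and 181 in mutant libraries, and cells and not libraries are counted here, so no test was made.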
